A study of Drosophila melanogaster with 12 samples.

Results

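The p53 peaks of Drosophila melanogaster embryos were 135 chromatin regions where an antibody to p53 recovered more DNA from wild-type than from p53 mutant embryos. All 135 entries of the authors' embryo peak list were kept, with no choice by size, out of 527 in the embryo and head lists together. Each entry gives a fold of wild-type over mutant chromatin, a −log10 q-value and a summit, the base with the strongest signal. The folds and q-values are the authors' own and describe 1 wild-type library set against 1 mutant library, so none has a replicate check.

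Chromatin came from wild-type embryos of strain yw and from embryos labelled as the mutant strain p535A-1-4, both 4.5 to 5.5 h old, with no stress treatment given for either. It was sheared to 200 to 300 bp after 10 min in 1% formaldehyde, and each precipitation used 2 µg of the p53 antibody d200. RNA came from embryos of the same 2 strains, irradiated with 40 Gy or mock treated at 3 to 4 h and collected after a further 1.5 h, with 1 library for each of the 4 groups. Heads of 1 to 2 week old adults of both strains gave a second peak list of 392 entries, which is used below only to say which embryo peaks recurred. RNA of wild-type heads of that age is set beside embryo RNA for a few genes. These heads were irradiated with 40 Gy and left for 3 h, or mock treated, with 1 library each. Whole embryos were used, so all cell types are pooled, and fewer cells of a type cannot be told apart from less RNA per cell. Since binding was measured without radiation and RNA with and without it, no library shows p53 on chromatin after damage. The peak names carry the mutant tag p53K1, which is not the name of the mutant in the labels, so which mutant allele served as the control behind the folds is uncertain.

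p53 is a transcription factor that is stabilised or activated after DNA breaks and binds short, paired sequence elements near its target genes. In flies the single p53 gene is best known for switching on cell death genes of the reaper region after irradiation. Their products, among them Reaper and Hid, bind the caspase inhibitor Diap1 and so release caspases. Peaks called against mutant chromatin mark loci whose recovery depends on the strain. Differences in DNA content or copy number between the strains cannot be told apart from p53 binding in this design.

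The peaks were mostly modest in size. Folds ran from 1.71 to 7.35 with a median of 2.48, and 39 of the 135 peaks reached a fold of 3, 14 a fold of 4 and 5 a fold of 5. The −log10 q-values ran from 1.42 to 94.4 with a median of 7.92, and 49 peaks were at 10 or more. The entry nearest to the list's end was a 217 bp peak in the 5′ untranslated region of CG6912, with a fold of 1.71 and a −log10 q-value of 1.42. Most peaks were narrow, with a median width of 327 bp, but 39 were wider than 500 bp and the widest, over the cytochrome P450 gene Cyp28d2, spanned 3002 bp. The arms X, 2L, 2R, 3L and 3R held 17, 20, 30, 36 and 31 peaks, and chromosome 4 held 1.

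**Figure D1:**
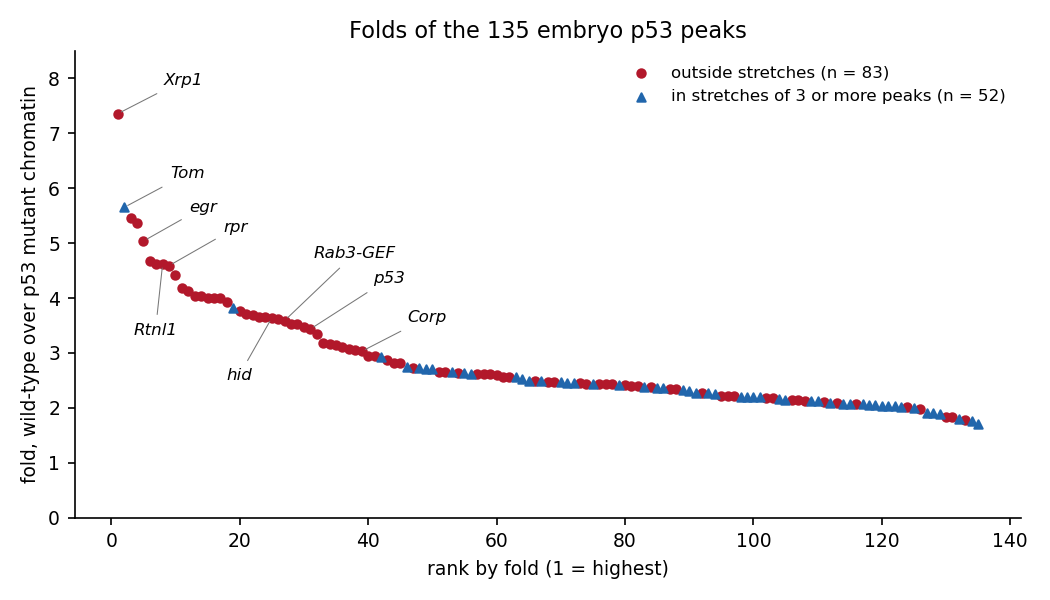
Fold of wild-type over p53 mutant chromatin (y axis) for each of the 135 embryo peaks, ranked from highest to lowest (x axis), with circles for the 83 peaks outside and triangles for the 52 peaks inside stretches of 3 or more neighbouring peaks. Labels name the gene with the nearest coding start for selected peaks. Xrp1 stands highest at 7.35, and 3 of the 45 highest folds lie in a stretch.

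Peaks were placed against genes in 2 ways. By the gene intervals of the embryo expression table, 105 summits (77.8%, exact binomial 95% interval 69.8% to 84.5%, for counting error only) fell inside a gene, where 67.2% of the bases of the 6 arms lie. Neighbouring peaks are not independent: outside the runs of close peaks described below the share was 59 of 83 (71.1%, 60.1% to 80.5%), an interval that holds the share of bases. A further 21 lay within 5 kb of an interval and 9 had none that near. Because many table intervals join neighbouring genes, summits were also placed on the reference annotation, a choice made after the data were seen. Then 54 of 135 (40.0%) were within 1 kb of the start of a coding transcript, against 20.3% of all bases, and the median distance was 1535 bp. Of these 54, 38 lay downstream of the start and 16 upstream. Summits fell in 5′ untranslated regions 16 times (11.9%, against 3.38% of bases) and in coding exons 40 times (29.6%, against 17.1%). Outside the runs of close peaks these counts were 39 of 83 within 1 kb of a start (47.0%), 12 in 5′ untranslated regions (14.5%) and 14 in coding exons (16.9%). Of all summits, 44 were intronic, 28 intergenic, 5 in non-coding exons and 2 in 3′ untranslated regions.

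**Figure D2:**
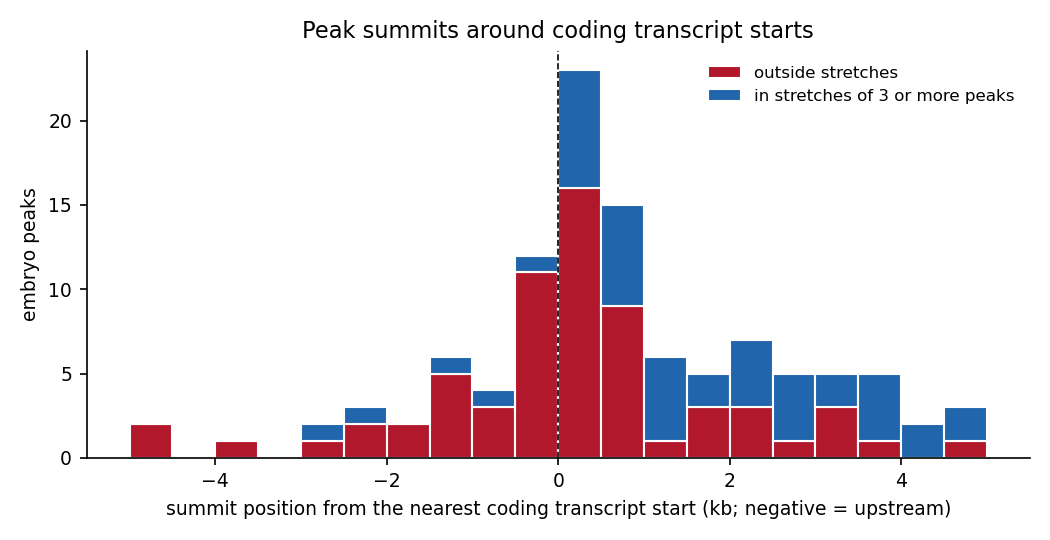
Number of embryo peaks (y axis, bins of 0.5 kb) by the position of the summit from the nearest coding transcript start (x axis, kb, negative upstream), stacked by whether the peak lies outside or inside a stretch of 3 or more peaks. The 108 summits within 5 kb of a start are shown, and the tallest bins lie just downstream of it.

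The p53 gene itself carried a peak. p53 (FBgn0039044, 3R:23049657-23054082, minus strand) had a 342 bp peak with a fold of 3.44 and a −log10 q-value of 18.7, its summit at 3R:23053306, 199 bp inside the nearest coding start. A head peak lay at the same place. The p53 transcript stood at 54.5 FPKM in irradiated and 25.9 FPKM in mock wild-type embryos, and at 0.34 FPKM in irradiated and 0.70 FPKM in mock mutant embryos. FPKM is fragments per kilobase of transcript and per 1 M fragments. The wild-type values were 1.04 apart on the log2(FPKM + 1) scale, on which all differences below are given, and the transcript was nearly absent from both libraries labelled mutant. Gr94a, a gustatory receptor gene inside the p53 locus, had 4.80 and 1.69 FPKM in irradiated and mock wild-type embryos and 0 and 0.05 FPKM in irradiated and mock mutant embryos. Whether the mutant chromosome holds the DNA under this peak is not given in the sources used here, so loss of that DNA and loss of binding cannot be told apart at p53.

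Of the 4 cell death genes of the reaper region, rpr and hid had peaks upstream of their starts. rpr (reaper, 3L:18397535-18398435, minus strand) had a 436 bp peak with a fold of 4.59, the ninth highest, whose summit at 3L:18403305 lay 4870 bp upstream of the start in intergenic DNA. Its transcript was at 208 FPKM in irradiated and 35.0 FPKM in mock wild-type embryos, against 24.5 FPKM in irradiated and 30.03 FPKM in mock mutant embryos. Only irradiated wild-type embryos stood apart, and rpr rose by 2.54 in them, with a ratio between 5.41 and 6.56 (95% interval, counting error only). The mutant difference was -0.28.

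hid, listed in the table as W (3L:18167745-18185641, minus strand), had 2 peaks. The stronger had a fold of 3.64 and its summit 2012 bp upstream of the start, and the weaker had a fold of 2.43 and its summit 128 bp upstream. hid RNA was at 113 FPKM in irradiated and 40.2 FPKM in mock wild-type embryos, against 32.5 and 38.1 FPKM in irradiated and mock mutant embryos, a rise of 1.47 in wild type and a difference of -0.23 in the mutant. Another peak, with a fold of 2.43 at 3L:18193959, lay further upstream in the same region, 7535 bp before the start of CG7320. skl (sickle) and grim, the other death genes of the region, had no peak of their own. The nearest summit to the start of skl, 36637 bp away, was the rpr peak, and skl RNA was at 174 FPKM in irradiated and 18.8 FPKM in mock wild-type embryos, against 22.1 and 24.1 FPKM in irradiated and mock mutant embryos. grim, 98888 bp from that summit, stood at 3.31 and 3.89 FPKM in irradiated and mock wild-type embryos and at 4.47 and 5.81 FPKM in irradiated and mock mutant embryos.

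Xrp1, a leucine zipper transcription factor known from the DNA damage response and from cell competition, had the highest fold of the list. Its 646 bp peak (3R:18923945-18924590) had a fold of 7.35 and a −log10 q-value of 94.4, with the summit in an intron 338 bp downstream of a coding start of Xrp1 (3R:18914968-18926989, plus strand). Xrp1 RNA was at 171 FPKM in irradiated and 29.2 FPKM in mock wild-type embryos, against 36.0 FPKM in irradiated and 28.2 FPKM in mock mutant embryos. It rose by 2.51 in wild type, a ratio of 5.46 to 6.30 by counting, and differed by 0.34 in the mutant.

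Corp and egr also had peaks at their starts. Corp (companion of reaper, X:8269898-8271409, minus strand), known as a negative regulator of p53, had a 203 bp peak with a fold of 3.03 and its summit 282 bp upstream. Corp RNA was at 137 FPKM in irradiated and 28.8 FPKM in mock wild-type embryos, against 21.7 and 25.2 FPKM in irradiated and mock mutant embryos, a rise of 2.21 in wild type. egr (eiger, 2R:10078366-10084210, plus strand), the fly tumour necrosis factor, had a fold of 5.04 with its summit in the 5′ untranslated region, 45 bp past the start. egr stood at 68.0 FPKM in irradiated and 30.1 FPKM in mock wild-type embryos, against 25.8 and 26.1 FPKM in irradiated and mock mutant embryos, a rise of 1.15.

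Rab3-GEF and Rtnl1, which are not death genes, had a peak at the start and rose with radiation. Rab3-GEF (X:15089682-15113762, plus strand), which encodes an exchange factor for a synaptic vesicle GTPase, had a fold of 3.59 with its summit 252 bp upstream. Its RNA was at 24.98 FPKM in irradiated and 1.27 FPKM in mock wild-type embryos, against 2.29 and 2.58 FPKM in irradiated and mock mutant embryos. The rise of 3.52 was the largest among genes tied to a peak once small RNAs were set aside, with a ratio of 16.6 to 23.6 by counting. With a pseudocount of 5 FPKM it was 2.26, below rpr at 2.41 and Xrp1 at 2.37. Rtnl1 (2L:4992808-5009720, minus strand), a reticulon of the endoplasmic reticulum, had a fold of 4.62 with its summit 474 bp upstream of a coding start. It stood at 1220 FPKM in irradiated and 578 FPKM in mock wild-type embryos, against 634 and 605 FPKM in irradiated and mock mutant embryos, a rise of 1.08.

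**Figure D3:**
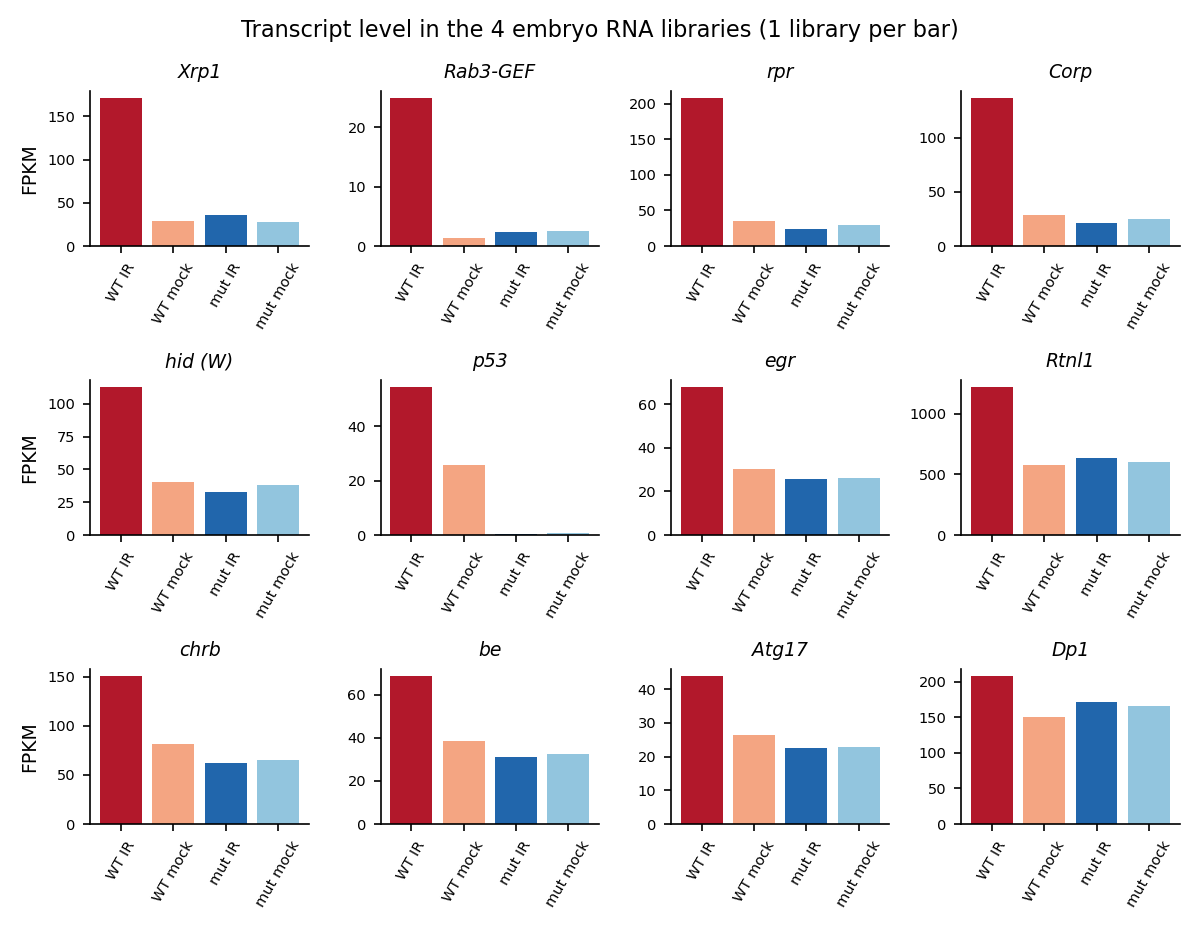
FPKM (y axes, each from 0) of 12 genes tied to a peak, in irradiated (IR) and mock wild-type (WT) and irradiated and mock p53 mutant (mut) embryos, 1 library per bar. In the panels of Xrp1, Rab3-GEF, rpr, Corp, hid, egr and Rtnl1 the irradiated wild-type bar stands alone, while Dp1, with the fourth highest fold, has 208 FPKM against 150 FPKM in mock wild-type embryos.

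Counted over the whole list, few of the genes tied to a peak responded to radiation, but the share was above that of all genes. By the table's intervals the 135 peaks were tied to 178 genes, of which 125 reached 1 FPKM in at least 1 of the 4 RNA groups. Of these, 12 (9.60%) rose 2-fold or more in wild-type embryos, against 1.32% of the 10654 genes tested. The same 12 had a p53-dependent rise, meaning that the wild-type difference also exceeded the mutant one by 2-fold, against 0.873% of all genes. Among the 12 were p53 and Gr94a, whose RNA was nearly absent from mutant embryos and so could hardly rise there. Falls of 2-fold in wild type were seen for 3 (0.892% of all genes), and p53-dependent falls for 2 (0.46%). In mutant embryos 1 of the 125 rose (1.02% of all genes) and 2 fell (0.948%), all 3 of them small RNAs. The median difference of the 125 genes was 0.15 in wild-type and -0.04 in mutant embryos, beside 0.02 and 0.04 over all genes tested.

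With coding starts of the annotation within 5 kb of a summit in place of the intervals, 139 genes were expressed. Of these, 9 rose (6.47%), against 1.32% of all genes tested. All 9 also had a p53-dependent rise, against 0.873% of all genes. These were Xrp1, Rab3-GEF, rpr, Corp, hid, p53, egr, Rtnl1 and Gr94a. The genes p53 and Gr94a were tied to the same peak. Since mutant embryos held hardly any RNA of either, their p53-dependent calls followed from the wild-type rise and say nothing further. The other 3 of the 12 were CR44381, an antisense RNA, and 2 small nucleolar RNAs inside the interval of dom, which was itself tied to a peak with a fold of 2.61. CR44381 had 8.91 FPKM in irradiated and 2.17 FPKM in mock wild-type embryos, against 8.41 and 9.68 FPKM in irradiated and mock mutant embryos, so that its mutant level was high without radiation. With a pseudocount of 5 FPKM the wild-type differences of p53, Gr94a and CR44381 were 0.94, 0.55 and 0.96, short of 2-fold. The small nucleolar RNAs Psi28S-3316c and Psi28S-3378 were at 14.1 and 6.81 FPKM in irradiated wild-type embryos and listed at 0 in the other 3 groups, and polyA libraries sample such RNAs poorly. Starts within 1 kb of a summit gave 59 expressed genes, 7 of which rose (11.9%), against 1.32% of all genes tested. In the other direction, 12 of the 93 genes with a p53-dependent rise (12.9%) were tied to a peak by intervals and 9 (9.68%) by starts, against 1.17% and 1.30% of all genes tested. Of the 93, only 71 were not small RNAs.

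**Figure D4:**
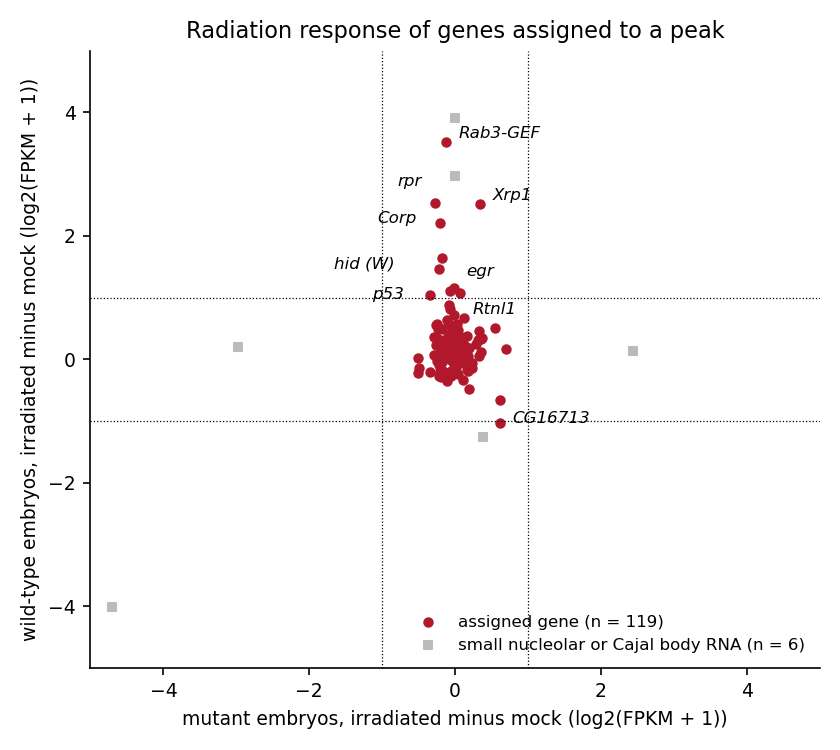
Log2(FPKM + 1) difference, irradiated minus mock, in mutant embryos (x axis) and wild-type embryos (y axis) for the 125 expressed genes tied to a peak by table intervals, 6 of them small nucleolar or Cajal body RNAs (squares). Dotted lines mark 2-fold. The named genes Rab3-GEF, rpr, Xrp1, Corp, hid, egr, Rtnl1 and p53 lie above the upper line and between the vertical lines, and CG16713 lies below the lower one.

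Further genes tied to a peak had smaller wild-type differences. A log2 difference of 0.5 or more was reached in wild type by 22 of the 125 genes, against 4.24% of all genes. These 22 include the 12 past 2-fold. In the mutant 5 of the 125 reached it, against 3.38%. Genes between 0.5 and 2-fold included chrb (charybde), an inhibitor of TOR signalling, with a peak of fold 3.66 in its intron. chrb stood at 151 FPKM in irradiated and 81.5 FPKM in mock wild-type embryos, against 62.0 and 65.5 FPKM in irradiated and mock mutant embryos. Atg17, a scaffold protein of autophagy, had an intronic peak of fold 4.18 and was at 43.9 and 26.5 FPKM in irradiated and mock wild-type embryos, against 22.4 and 22.7 FPKM in irradiated and mock mutant embryos. The gene be, 4765 bp from a peak of fold 4.12, had 68.8 and 38.6 FPKM in irradiated and mock wild-type embryos and 30.9 and 32.3 FPKM in irradiated and mock mutant embryos. Mnt, which opposes Myc, the ubiquitin ligase gene hyd and Glut4EF differed by 0.57, 0.57 and 0.58 in wild type and by -0.08, 0.02 and -0.25 in the mutant. Not all genes of this range were flat in the mutant. The gene ana2, with a peak of fold 2.72 at its start, differed by 0.51 in wild type and by 0.54 in the mutant.

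Regulatory genes were among those with a peak close to the start. aop, which encodes the ETS repressor Yan, had a fold of 3.52 with its summit 1 bp past the start. wnd, a kinase upstream of JNK, had a fold of 3.65 with its summit 193 bp upstream. The kinase gene Tao, the chromatin remodeller gene dom, the TIF1-type cofactor gene bon and the forkhead factor gene FoxK (fd68A in the table) had folds of 2.62, 2.61, 2.62 and 2.62, and REPTOR (CG13624 in the table), a transcription factor controlled by TOR, one of 3.08. None of the 7 rose 2-fold, a count too small to set apart from the 1.32% of all genes tested. Their wild-type differences lay between 0.03 for aop and 0.32 for REPTOR, and their mutant differences between -0.29 for bon and 0.03 for Tao. ctrip, a ubiquitin ligase gene, had a peak of fold 3.72 that lay 665 bp upstream of one of its starts and 8589 bp from that of the checkpoint clamp gene Hus1-like. ctrip was at 167 and 118 FPKM in irradiated and mock wild-type embryos, against 76.2 and 89.8 FPKM in irradiated and mock mutant embryos. Hus1-like was at 29.8 and 35.1 FPKM in irradiated and mock wild-type embryos, against 32.0 and 35.9 FPKM in irradiated and mock mutant embryos.

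Several of the strongest peaks lay at genes whose RNA was less than 2-fold apart with radiation. Dp1, which encodes an RNA-binding protein with KH domains, had a fold of 5.37 with its summit 6 bp past the start, and stood at 208 FPKM in irradiated and 150 FPKM in mock wild-type embryos, against 172 and 167 FPKM in irradiated and mock mutant embryos. crp (cropped), a helix-loop-helix factor, had a fold of 4.62 in its 5′ untranslated region and stood at 185 and 177 FPKM in irradiated and mock wild-type embryos, against 85.4 and 96.8 FPKM in irradiated and mock mutant embryos. For crp both wild-type libraries stood above both mutant ones. The sixth highest fold, 4.68, was in an intron of the phosphatase gene Ptp61F, 3677 bp upstream of ru (roughoid), a rhomboid protease gene, where a single table interval joins 312, rho and other genes. The phosphoserine phosphatase gene aay and the glycolytic gene Pgk, with its neighbour Bacc, had peaks with folds of 4.05 and 4.03. The kinase gene tlk and the GTPase gene RhoU each had a peak with a fold of 4.00. No gene tied to these peaks rose 2-fold, where 1.32% of all genes tested did. The 3 genes that fell 2-fold in wild type were 2 small nucleolar RNAs of the dom interval and CG16713, tied to a peak of fold 2.14. CG16713 had 3.46 and 8.16 FPKM in irradiated and mock wild-type embryos and 37.6 and 24.2 FPKM in irradiated and mock mutant embryos, a difference of -1.04 in wild type, or -0.64 with a pseudocount of 5 FPKM, and 0.62 in the mutant.

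Repair genes on the list of p53 targets had no embryo peak. Of the 14 members, 5 were tied to a peak (rpr, hid, Corp, egr and Xrp1). In irradiated wild-type embryos 10 of the 14 rose 2-fold, against 1.32% of all genes tested. A p53-dependent rise was seen for 9, against 0.873%. The list was drawn up with earlier results of these data known, so these counts are no separate support. The risers without a peak were skl and the repair genes Irbp, Ku80, mus205 and lig3. Irbp and Ku80, the subunits of the Ku end-joining complex, had their nearest summits 1076304 and 516062 bp away. Irbp RNA stood at 56.2 FPKM in irradiated and 18.7 FPKM in mock wild-type embryos, against 18.8 and 16.2 FPKM in irradiated and mock mutant embryos. Ku80 was at 27.9 and 11.03 FPKM in irradiated and mock wild-type embryos, against 12.8 and 10.6 FPKM in irradiated and mock mutant embryos. The starts of mus205, RnrL, mre11 and WRNexo were 32802, 8793, 244580 and 558246 bp from the nearest summit.

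Of 42 DNA repair genes 1, phr, which encodes a photolyase, was tied to a peak, near the share of all genes. The peak was a broad one of 1068 bp with a fold of 2.10 over its coding exon. phr had 108 and 111 FPKM in irradiated and mock wild-type embryos and 65.4 and 60.6 FPKM in irradiated and mock mutant embryos. Of all 10654 genes tested, 1.17% were tied to a peak by intervals and 1.30% by starts, and the lists are read against these shares. Of 15 apoptosis genes, 5 were tied to a peak, namely rpr, hid, p53, Corp and egr, and the caspase genes Nc and Dcp-1 and the caspase inhibitor gene th were not. All of these 5 but p53 are also on the list of p53 targets, so the lists are not separate results. The apoptosis and cell cycle lists held 25 symbols each, of which 15 and 20 were found. The JNK pathway list had 2 of 14, rpr and egr, and the cell cycle and Hox lists had 0 of 20 and 0 of 8. Of 46 patterning genes, rho was tied to a peak by a table interval alone, 96860 bp from its start. These lists were drawn up with earlier results of these data known.

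Single members of other lists had peaks. By intervals these were 1 of 26 Notch and neurogenesis genes (2 by starts, Tom and Brd), 1 of 12 adult head markers and 1 of 9 muscle markers (0 by starts), and no marker of embryo, gut, late larval gland or glia and no maternal gene had one. Tom, a Bearded family inhibitor of Notch ligand signalling, had 3 peaks with folds of 5.65, 3.81 and 2.12, at 999 bp and 2709 bp upstream and 91 bp downstream of its start. The first was the second highest fold of the list. Tom RNA was abundant in all 4 groups, at 1213 and 1102 FPKM in irradiated and mock wild-type embryos and 1019 and 1027 FPKM in irradiated and mock mutant embryos. Its neighbour Brd, whose start lies 3232 bp from the weakest Tom summit, had 769 and 744 FPKM in irradiated and mock wild-type embryos, against 394 and 412 FPKM in irradiated and mock mutant embryos. Rh5, a rhodopsin gene of the adult eye, had a peak of fold 3.19 with its summit 775 bp upstream, and its RNA was at 0.46 and 0.59 FPKM in irradiated and mock wild-type embryos and 0.48 and 0.53 FPKM in irradiated and mock mutant embryos. Mhc, the muscle myosin heavy chain gene, had a peak of fold 3.76 in a coding exon and stood at 119 and 122 FPKM in irradiated and mock wild-type embryos and 95.1 and 113 FPKM in irradiated and mock mutant embryos.

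Many peaks had close neighbours. Runs of 3 or more peaks with at most 5 kb between neighbouring summits, a definition chosen after the data were seen, numbered 11 and held 52 of the 135 peaks. The largest, of 10 peaks over 8233 bp, covered fal and pip on 3L. Others with 7 peaks each lay over Sec31 and ana2 on 2R, a COPII coat gene and a centriole gene, and over Lerp and IntS12 on 3R. Peaks in these stretches had a median fold of 2.26, against 2.81 for the 83 outside, and apart from the Tom run none exceeded 2.93. Their summits lay in coding exons more often, with 26 of 52 (50.0%) there, against 14 of 83 (16.9%) outside. Of the 25 expressed genes with a coding start near stretch peaks alone, 0 rose 2-fold with radiation, a count too small to set apart from the 1.32% of all genes.

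**Figure D5:**
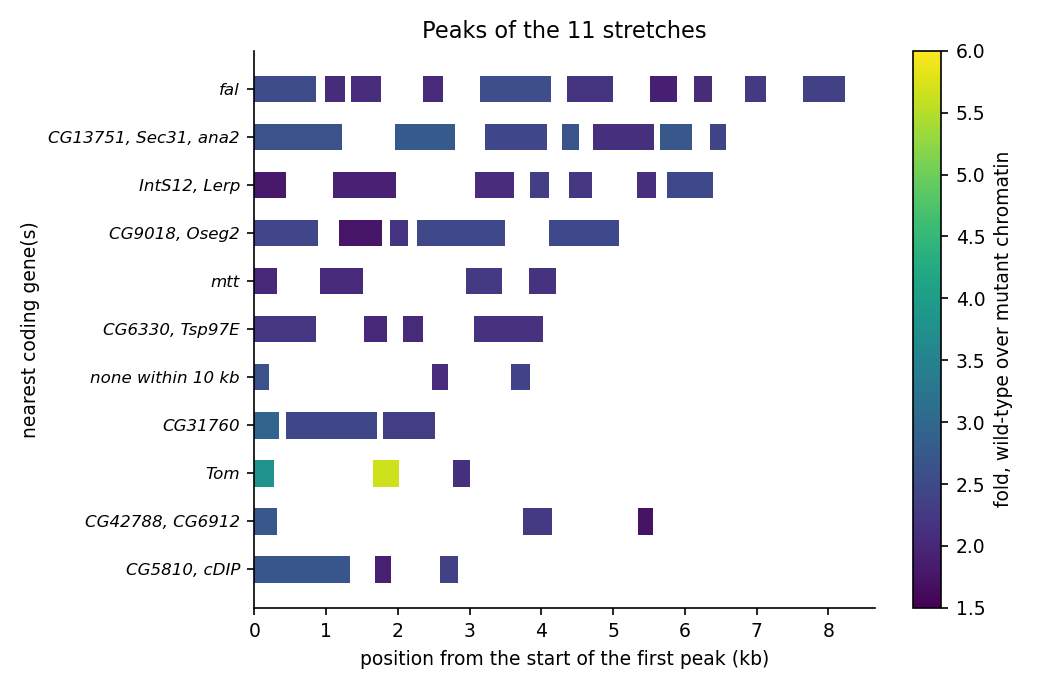
Peaks (bars, drawn at their width) of the 11 stretches, placed by distance from the start of each stretch's first peak (x axis, kb), with the nearest coding genes named on the y axis and the fold of wild-type over mutant chromatin as colour. Apart from 2 bars of Tom, all folds are 2.93 or less.

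Chromatin was taken without radiation, so the RNA of mock embryos of the 2 strains is its closest match. Of the 125 expressed genes tied to a peak, 7 were 2-fold or more lower in mutant than in wild-type mock embryos, against 2.44% of all genes, and 4 were higher, against 4.94%. Their median difference, mutant minus wild type, was -0.09, beside -0.01 over all genes tested. The 7 were p53, Gr94a, RhoU, the non-coding RNAs CR45600 and CR44977, and 2 small RNAs, and RhoU stood at 14.7 FPKM in mutant and 33.1 FPKM in wild-type mock embryos. The 4 were fal, CR44381, CG16713 and Dscam4. fal, under the longest stretch, was at 30.1 FPKM in mutant and 11.9 FPKM in wild-type mock embryos, and Dscam4, under a peak of fold 2.01, at 8.48 FPKM in mutant and 0.41 FPKM in wild-type mock embryos. The part of other differences between the strains in these values and in the peaks was not tested.

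Transposable elements of the annotation overlapped 6 peaks, all outside stretches, among them peaks with folds of 5.46 and 4.41 over Doc3, opus and Fw2 copies on 2R. Element copies can differ in number and place between strains, and reads from near-identical copies cannot be placed with certainty.

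How many embryo peaks recurred in heads depended on the overlap asked for. An overlap of at least 1 bp was found for 73 of 135 (54.1%, exact binomial 95% interval 45.3% to 62.7%, for counting error only), and these touched 75 of the 392 head peaks (19.1%). The interval treats peaks as independent, which neighbouring peaks are not. Summits within 250 bp were found for 63 (46.7%) and a reciprocal overlap of 50% for 42 (31.1%). The counts below use 1 bp. Outside stretches 53 of 83 (63.9%) overlapped a head peak, and inside stretches 20 of 52 (38.5%). The share went with the fold: 33 of the 45 highest embryo folds overlapped a head peak, 24 of the middle 45 and 16 of the lowest 45. Of the 20 highest, 14 did. In the same order of fold, 3, 21 and 28 of each 45 lay in stretches, so fold and stretch were not separated in this trend. Xrp1, egr, Dp1, crp, Rtnl1, Atg17, p53, Corp and Rab3-GEF were among the shared peaks. The rpr peak, the stronger hid peak, the 3 Tom peaks and the be peak had no head peak over them, while the weaker hid peak did. The 2 lists differ in length and folds were not compared between them.

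Head RNA was compared for genes with a shared peak. With radiation, wild-type heads differed from mock heads by 0.17 for Xrp1, 0.18 for egr, 0.45 for Corp, -0.11 for Rab3-GEF and -0.10 for Rtnl1, where the embryo differences were 2.51, 1.15, 2.21, 3.52 and 1.08. Xrp1 and Rab3-GEF stood at 407 and 39.7 FPKM in mock wild-type heads, in a table normalised apart from that of embryos. Heads were irradiated with 40 Gy, the dose given to embryos, but collected after 3 h where embryos had 1.5 h. Tissue, age and recovery time cannot be told apart here, and with 1 library per group the difference was not tested.

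The depth of the RNA libraries, inferred from the spacing of low FPKM values, was 18.6 to 22.5 M fragments per embryo library. All 12 embryo markers reached 1 FPKM and 5 of 12 adult head markers did. Gut markers summed to 107 and 13.5 FPKM in irradiated and mock wild-type embryos. In irradiated and mock mutant embryos they summed to 158 and 68.3 FPKM. Of 11 expressed members, 8 rose 2-fold in wild type, against 1.32% of all genes tested, and 6 had a p53-dependent rise, against 0.873%. No gut marker was at 0 in all groups, and none was tied to a peak. Late larval gland markers summed to 4.76 and 85.7 FPKM in irradiated and mock wild-type embryos and to 1.35 and 150 FPKM in irradiated and mock mutant embryos. The part of these genes in the radiation values was not tested.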

How the data were processed

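Per the submitters' processing notes, chromatin reads were handled with cutadapt, Bowtie2, Picard, SAMtools and MACS2, and RNA reads with cutadapt, TopHat2, Picard, SAMtools and Cuffdiff, on dm6. Tool versions, peak settings and any pooling were not given in the sources used. The authors' deposited peak list gives a fold (ratio) of wild-type over mutant chromatin, −log10 p-values, −log10 q-values and a summit offset score per peak. The expression values are FPKM as deposited, with the unit taken from the file headers. Chromatin depth is unknown.

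Summits were placed on the intervals of the embryo table, or the nearest within 5 kb, and on coding starts of Ensembl release 115, whose dm6 coordinates matched the table for 9525 of 16235 matched rows, while 5556 table intervals were over 1 kb longer. Differences are of log2(FPKM + 1), a pseudocount of 1 FPKM that understates changes of low genes, for genes that reached 1 FPKM in any of the 4 groups. They were counted at 2-fold, with no test, as each group has 1 library. Counting intervals assume transcripts shortened by 150 bp. Members and lists were chosen with earlier results of these data known. Named are p53, the 10 highest folds, peaks of target, apoptosis and repair genes, shared peaks in order of fold, peaks of genes past 2-fold and list members with a peak. chrb, be, Mnt, hyd, Glut4EF, Dscam4, fal, Lerp, IntS12, Sec31, ana2, pip, CG7320, aop, wnd, Tao, bon, FoxK, REPTOR and Cyp28d2 were named after their values were seen. Python 3.11.15, NumPy 2.4.6 and SciPy 1.17.1 were used, and placing and counting were checked on simulated data.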

Additional observations from a re-analysis of the deposited data

Results flagged for a closer look

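Several genes tied to a peak had radiation differences past 2-fold in wild-type embryos and of opposite sign in a second setting, which was not tested as each group has 1 library. On the log2(FPKM + 1) scale the radiation response in wild-type minus mutant embryos was 3.64 for Rab3-GEF, 2.82 for rpr, 2.42 for Corp, 1.83 for CR44381, 1.69 for W (hid), 1.39 for p53, 1.18 for Gr94a, 1.17 for egr and -1.65 for CG16713. The mutant responses of the 8 that rose in wild type lay between -0.34 for p53 and -0.02 for egr. By counting, the mutant ratios of rpr, Corp and W lay below 1, while the intervals of egr (0.909 to 1.07), Rab3-GEF (0.756 to 1.05), CR44381 (0.632 to 1.18), p53 (0.190 to 1.13) and Gr94a held 1, so no movement in the mutant is shown for these 5. CG16713 differed by -1.04 in wild-type and 0.62 in mutant embryos. The mutant embryos held hardly any p53 or Gr94a RNA, so their responses there rest on a few fragments. The response in wild-type embryos minus wild-type heads was 3.63 for Rab3-GEF, 1.97 for CR44381 and 1.18 for Rtnl1, with head responses of -0.11, -0.32 and -0.10. Heads had 3 h of recovery and embryos 1.5 h. CR44381 was at only 0.21 FPKM in irradiated and 0.52 FPKM in mock wild-type heads, so its head response rests on values under the 1 FPKM limit.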

How the results depend on the processing

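The counts of responding genes stayed within 1.5 times of the values given, over pseudocounts of 0.1 and 5 FPKM, filters, distances of 1 to 20 kb, a 1.5-fold threshold, peaks at a −log10 q-value of 10 or more, coding starts in place of intervals, and without stretches or small RNAs. The 12 rises in wild type ranged from 9 to 17 and the 12 p53-dependent rises from 9 to 16. Coding starts and leaving out stretches or small RNAs were added after the data were seen, as were the threshold and q-value settings of the p53-dependent count. At 5 FPKM the calls of p53, Gr94a and CR44381 were lost, and the fall of CG16713. At a −log10 q-value of 10 or more, 49 of 135 peaks were left, so fewer peaks were compared. Of these 49, 34 had the summit inside an interval, in place of 105 of 135, where 67.2% of bases lie. With a head peak at the same limit 30 of the 49 were shared, in place of 73 of 135. With 50% reciprocal overlap 42 peaks were shared, and with summits within 250 bp 63. Peaks in stretches numbered 40 to 55 at gaps of 2, 10 and 20 kb. All 28 values of 14 named genes kept their direction at pseudocounts of 0.1 and 5 FPKM, and 6 moved beyond their counting interval. The share of peaks with a p53 binding motif was not run, as no genome sequence was used here. No paired analysis was possible because each group has 1 library. Replicates could not be left out, and peak depth is unknown, so a locus without a peak is not shown to be unbound.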
